A study of Homo sapiens with 9 samples.

Results

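The 2 known eraser genes of N6-methyladenosine (m6A) and 7 genes of m6A readers were followed in LNCaP:C4-2 cells in which the m6A writer METTL3 was targeted. The genes were the erasers FTO and ALKBH5, the cytoplasmic readers YTHDF1, YTHDF2 and YTHDF3, the readers YTHDC1 and YTHDC2, and the hnRNP readers HNRNPA2B1 and HNRNPC. They were found by symbol through their Ensembl identifiers, and all 9 were present among the 60675 genes of the count files and among the 19278 genes with enough counts to be tested. LNCaP:C4-2 cells descend from the prostate cancer line LNCaP and grow under androgen deprivation, but still respond to the androgen receptor inhibitor enzalutamide. Every group carried a lentiviral, doxycycline-inducible short hairpin RNA (shRNA) under puromycin selection, was kept in phenol red-free medium with charcoal-stripped serum, and was given 1 μg/ml doxycycline for 6 days, although the sample titles name a vehicle. The 3 groups were shScramble, whose hairpin has no target gene, shMETTL3 guide 2 and shMETTL3 guide 1, with 3 RNA-seq libraries each. The study's methods speak of stable selected clones without giving their number, so that the effect of a hairpin and a difference between selected cells cannot be told apart. The labels do not say whether the libraries of a group came from separate cultures, and p-values therefore measure the spread between these libraries.

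m6A is set on adenosines of nascent transcripts by a complex around the catalytic subunit METTL3. FTO and ALKBH5 are iron- and 2-oxoglutarate-dependent dioxygenases of the AlkB family that remove the methyl group. Proteins with a YTH domain hold the methylated base in an aromatic cage: the YTHDF proteins act in the cytoplasm, where they promote decay of bound mRNA through the CCR4-NOT deadenylase and through RNase P/MRP, YTHDC1 acts in the nucleus on splicing and export, and YTHDC2 is an RNA helicase best known from germ cells. HNRNPA2B1 and HNRNPC are abundant nuclear RNA-binding proteins of splicing and pre-mRNA packaging whose binding changes with the mark, for HNRNPC through opening of RNA structure around it.

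The sequences of both METTL3 hairpins are shown because every comparison rests on them. They are given 5′ to 3′ as they stand in the sense strand of the target mRNA.
guide 2 target: gctgcacttcagacgaattat
guide 1 target: cgtcagtatcttgggcaagtt
Each 21-base target matched 5 annotated transcripts, all of them of METTL3, and 0 transcripts of the 9 eraser and reader genes. The longest uninterrupted run shared with any transcript of these genes was 9 bases for guide 1, in YTHDF2, YTHDF3, HNRNPA2B1 and HNRNPC, and 8 bases for guide 2, in FTO, ALKBH5, YTHDF2 and YTHDF3. Runs at least that long were common, being found in 19.6% of tested genes for guide 1 and in 45.8% for guide 2.

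The counts of METTL3 itself were 922, 1010 and 753 with shScramble, 382, 415 and 349 with guide 2, and 837, 837 and 886 in the libraries labelled guide 1. As TMM-scaled CPM, which are counts relative to library size, its level was 31.5 ± 1.59 (SD, n = 3) with shScramble, 16.3 ± 0.423 with guide 2 and 29.7 ± 0.378 with guide 1. The log2 fold change against shScramble was -0.95 (SE 0.0687, adjusted p = 2.97e-12) for guide 2 and -0.08 (SE 0.0633, adjusted p = 0.251) for guide 1, and 6.58% of the METTL3 exon bases are shared with the opposite-strand gene TOX4. A gene was called when its adjusted p (edgeR's quasi-likelihood F test, adjusted by Benjamini-Hochberg over all tested genes) was under 0.05 and the difference at least 1.5-fold. By this rule METTL3 RNA was lower in the guide 2 libraries, with no difference detected in those labelled guide 1, which are named by their label throughout. Total counts per library were 21899501 to 30897639. The libraries labelled guide 1 stood apart from the rest, with a highest correlation of log2 CPM to a library of another group of 0.938, against 0.974 between shScramble and guide 2 libraries and at least 0.991 within groups. Luminal prostate markers were all detected, with summed levels of 2111 to 2138 CPM with shScramble, 2275 to 2418 with guide 2 and 1075 to 1104 with guide 1, where 4 of 9 (FOLH1, KRT8, KRT18 and HOXB13) fell. Summed neuroendocrine markers lay between 5.83 and 6.53 CPM, between 2.95 and 4.42 and between 18.9 and 25.3, respectively. Summed stromal markers, nearly all COL1A1, lay between 43.5 and 46.6 CPM, between 37.2 and 40.6 and between 19.5 and 26.1, while the leukocyte genes PTPRC, CD3E and MS4A1 and the basal genes KRT5, KRT14 and TP63 had at most 3 counts in any library. The remaining leukocyte gene, CD68, exceeded 3 counts in every group, and the remaining basal gene, KRT15, did so with guide 2 only. Summed leukocyte markers reached at most 0.550 CPM and summed basal markers at most 0.199 CPM. The part of these markers in the results below was not tested.

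FTO, which demethylates m6A and the cap-adjacent m6Am, was highest in the guide 2 libraries. Its counts were 1469, 1567 and 1043 with shScramble, 1905, 2113 and 1947 with guide 2, and 1456, 1594 and 1534 with guide 1. As CPM these were 47.5, 49.2 and 45.7 with shScramble, 82.6, 84.2 and 88.3 with guide 2, and 51.1, 57.4 and 51.3 with guide 1. All 3 guide 2 libraries lay far above the other 6, and the guide 1 libraries lay just above those of shScramble without overlap. The level was 1.79-fold higher with guide 2 than with shScramble (95% interval 1.66 to 1.93), a log2 fold change of 0.84 (SE 0.0545, adjusted p = 3.21e-13). With guide 1 it was 1.12-fold higher (1.04 to 1.21, adjusted p = 0.0103), below the 1.5-fold that a call requires. The adjusted p of this small difference was above 0.05 without shScramble replicate 3 (0.0611) and without guide 1 replicate 2 (0.114). It stayed below 0.05 without shScramble replicate 1 (0.0286), shScramble replicate 2 (0.0142) or guide 1 replicate 1 (0.00344). The direct comparison of guide 2 with guide 1 gave 1.60-fold (1.48 to 1.72, adjusted p = 5.89e-12). Because these are bulk libraries, a change in the cells present and a change of RNA per cell cannot be told apart, here and below.

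By the rule for a call, FTO was the only 1 of the 9 genes called in the comparison of guide 2 with shScramble, where 29.3% of all tested genes were called and 8.85% were called higher. Of all tested genes, 4.44% had a log2 fold change at or above that of FTO.

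ALKBH5, the other m6A demethylase, was higher with guide 2 by less than the 1.5-fold limit. It had 6797, 6745 and 4683 counts with shScramble, 6483, 7188 and 6145 with guide 2, and 5504, 6167 and 6519 with guide 1, corresponding to 219.9, 212 and 205 CPM, to 281, 287 and 279 CPM, and to 193, 222 and 218 CPM. The guide 2 libraries were the 3 highest, and the other 2 groups overlapped. The difference of guide 2 from shScramble was 1.33-fold (1.24 to 1.42), a log2 fold change of 0.41 (SE 0.0493, adjusted p = 4.91e-08). For guide 1 it was -0.01 (95% interval -0.11 to 0.09, adjusted p = 0.887), and guide 2 stood 1.34-fold above guide 1 (adjusted p = 1.45e-08). An opposite-strand gene covers 11.19% of the ALKBH5 exon bases, and this gene had 31 counts over all 9 libraries.

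The ratio of both erasers does not depend on how libraries are scaled. Per kilobase of exon, FTO reached 0.0561 ± 0.00204 of the ALKBH5 level with shScramble, 0.0756 ± 0.00332 with guide 2 and 0.0634 ± 0.00387 with guide 1. The 3 groups did not overlap in any pairing. An exact two-sided permutation test gave p = 0.1 for each pair of groups, which is the smallest p that 3 libraries against 3 allow. Across the 18 exact permutation tests on shares and ratios given here, p = 0.1 corresponds to a Benjamini-Hochberg value of 0.138.

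**Figure D1:**
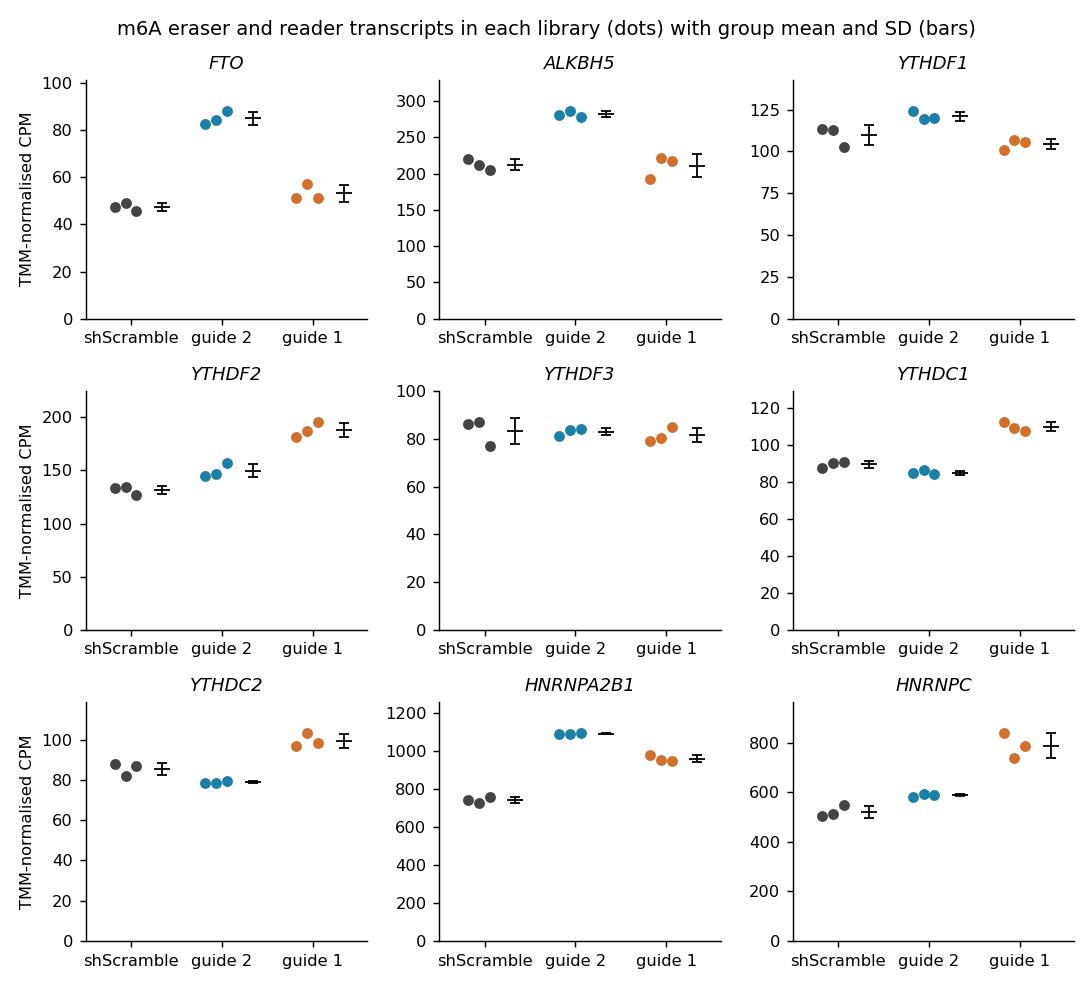
TMM-normalised CPM (y axes, from 0) of the 9 eraser and reader genes in each library (dots) of shScramble, shMETTL3 guide 2 and the libraries labelled guide 1 (x axes), with the group mean and SD over 3 libraries as bars. FTO lies between 82.6 and 88.3 CPM with guide 2 and at most at 57.4 elsewhere, whereas HNRNPC, YTHDF2, YTHDC1 and YTHDC2 are highest in the guide 1 libraries.

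The gene FTO lies on chromosome 16 from 53703963 to 54121941 on the plus strand of GRCh38, and ALKBH5 on chromosome 17 from 18183078 to 18209954, also on the plus strand. The start of FTO is 25 bases from that of RPGRIP1L, a gene of the ciliary transition zone on the opposite strand, so that both share a divergent promoter. It is shown because FTO was the gene called with guide 2. The window runs from 250 bases before to 50 after the FTO start as given by RefSeq (GRCh38.p14, plus strand), and capitals mark the letters ACTACA, any 2 bases and TCCC on either strand, which form part of the consensus bound by ZNF143.
FTO promoter, chr16:53703906-53704205: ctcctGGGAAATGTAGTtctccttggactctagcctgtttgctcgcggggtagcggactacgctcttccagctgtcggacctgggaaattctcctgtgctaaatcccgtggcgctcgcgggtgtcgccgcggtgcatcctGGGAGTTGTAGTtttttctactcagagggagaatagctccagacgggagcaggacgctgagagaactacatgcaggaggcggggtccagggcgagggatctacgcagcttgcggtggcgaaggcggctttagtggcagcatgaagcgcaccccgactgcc
The motif occurred 2 times in this window, whereas 1.754% of 35116 promoter windows held it at least once and 0.216% held 2 or more matches. Of the motifs searched, it was the only motif with a match in the FTO window. These shares therefore do not measure how unusual the window is. The RPGRIP1L window shares 204 of its 300 bases with that of FTO and held both matches as well. RPGRIP1L changed differently from FTO: its level was 25.5 CPM with shScramble, 29.9 with guide 2 and 32.2 with guide 1, with log2 fold changes of 0.23 (SE 0.0688, adjusted p = 0.00563) for guide 2 and 0.34 (SE 0.0673, adjusted p = 7.49e-05) for guide 1. On the far side of FTO, 161363 bases away, the homeobox gene IRX3 rose with guide 2 from 30.9 to 49.8 CPM (log2 fold change 0.69, SE 0.058, adjusted p = 5.71e-11) and was at 25.1 CPM with guide 1 (-0.30, adjusted p = 8.83e-05).

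Among the YTHDF readers none was called against shScramble with either hairpin, and the main difference was in YTHDF2 in the libraries labelled guide 1. YTHDF2, the reader best known for directing mRNA to deadenylation and decay, had 4118, 4278 and 2896 counts with shScramble, 3347, 3686 and 3460 with guide 2, and 5175, 5188 and 5845 with guide 1. These were 133, 134 and 127 CPM with shScramble, 145, 147 and 157 with guide 2, and 182, 187 and 196 with guide 1. The groups formed 3 separate ranges in that order. Against shScramble, guide 1 gave a log2 fold change of 0.52 (1.43-fold, 1.34 to 1.53, adjusted p = 9.53e-11) and guide 2 one of 0.19 (SE 0.0467, adjusted p = 0.00119), which became 0.04 (adjusted p = 0.504) with library size alone. Guide 2 lay below guide 1 by -0.33 on the log2 scale (SE 0.0463, adjusted p = 3.27e-07).

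YTHDF1, linked to translation of methylated mRNA, moved less and in another pattern. Its counts were 3512, 3586 and 2349 with shScramble, 2866, 2988 and 2643 with guide 2, and 2874, 2967 and 3157 with guide 1, which gave 114, 113 and 103 CPM, then 124, 119 and 119.8 CPM, and 101, 107 and 106 CPM. The guide 2 libraries were the 3 highest, while shScramble and guide 1 overlapped. The log2 fold change against shScramble was 0.14 (95% interval 0.04 to 0.24, adjusted p = 0.0126) for guide 2, which became -0.01 with library size alone as the scale, and -0.07 (-0.17 to 0.03, adjusted p = 0.18) for guide 1. The pass for guide 2 was also lost with a minimum mean of 1 CPM (adjusted p = 0.0883), without shScramble replicate 3 (0.103) and without guide 2 replicate 1 (0.0605). It held with DESeq2, without a low-count filter and without any other single shScramble or guide 2 library. Guide 2 exceeded guide 1 by 0.21 (SE 0.0478, adjusted p = 0.000244).

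YTHDF3, which acts together with both other YTHDF proteins, passed the test in none of the 3 comparisons. It had 2661, 2773 and 1758 counts with shScramble, 1876, 2101 and 1855 with guide 2, and 2255, 2237 and 2538 with guide 1. In CPM the libraries held 86.1, 87.1 and 77.0 with shScramble, 81.3, 83.8 and 84.1 with guide 2, and 79.2, 80.5 and 84.9 with guide 1. All 3 groups overlapped, and the lowest and the highest value were both in shScramble. The log2 fold change was -0.01 for guide 2 (95% interval -0.11 to 0.10, adjusted p = 0.904) and -0.03 for guide 1 (-0.14 to 0.07, adjusted p = 0.559), and 0.03 between the hairpins (-0.08 to 0.13, adjusted p = 0.648). With library size alone, guide 2 lay lower than shScramble (-0.16, adjusted p = 0.0078) and lower than guide 1 (-0.11, adjusted p = 0.0484). The sign of the guide 2 value turned with no filter on low counts and without single libraries, that of the difference between the hairpins turned with library size alone and with another filter, and that of the guide 1 value did not turn in any alternative.

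Set against each other per kilobase of exon, the YTHDF transcripts were shared out differently in the libraries labelled guide 1. YTHDF2 made up 42.2% ± 0.691 of the summed YTHDF level with shScramble, 43.6% ± 1.19 with guide 2 and 52.1% ± 0.478 with guide 1. YTHDF1 made up 41.1% ± 0.395, 41.3% ± 1.25 and 33.8% ± 0.657, respectively. Both shares of guide 1 lay outside those of the other groups (exact permutation p = 0.1 in each case, the smallest possible), and guide 2 overlapped shScramble for both (p = 0.8 for YTHDF1 and 0.2 for YTHDF2). The share of YTHDF3 was 16.7% ± 0.359 with shScramble, 15.2% ± 0.294 with guide 2 and 14.1% ± 0.186 with guide 1, without overlap between groups (exact permutation p = 0.1 for each pair). The summed level was 80.8 ± 3.71 CPM per kilobase with shScramble, 88.9 ± 1.47 with guide 2 and 93.6 ± 2.98 with guide 1. YTHDF2 thus made up the larger part of the sum in the guide 1 libraries, in which METTL3 was at 29.7 CPM.

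**Figure D2:**
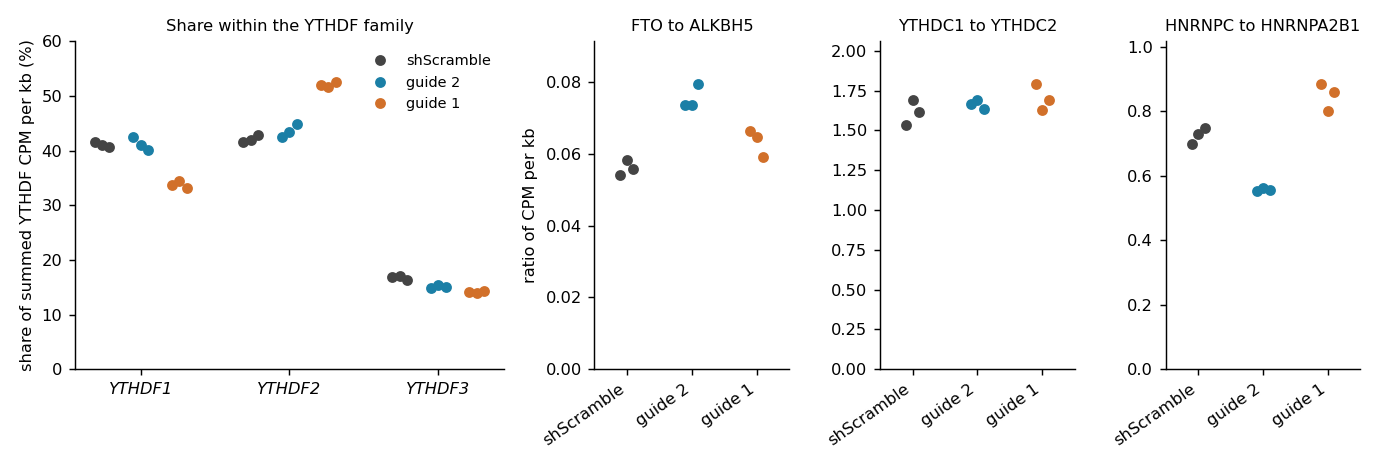
Left, the share (%) of each YTHDF gene in their summed CPM per kilobase of exon, by library (dots) and group (colours); right, the ratios of CPM per kilobase of FTO to ALKBH5, YTHDC1 to YTHDC2 and HNRNPC to HNRNPA2B1 by library, with all y axes from 0. The YTHDF2 share lies between 51.6% and 52.5% with guide 1 and at most at 44.9% in the other groups, and HNRNPC to HNRNPA2B1 is lowest with guide 2 and highest with guide 1.

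Both YTHDC genes were at or slightly below the shScramble level with guide 2 and above it with guide 1. YTHDC1 had 2704, 2871 and 2077 counts with shScramble, 1956, 2167 and 1857 with guide 2, and 3205, 3039 and 3224 with guide 1. Its levels were 87.5, 90.2 and 91.0 CPM, then 84.8, 86.4 and 84.2 CPM, and 113, 109 and 108 CPM. The groups did not overlap, but the difference of guide 2 from shScramble, -0.07 on the log2 scale (95% interval -0.17 to 0.02, adjusted p = 0.168), did not pass the test. With guide 1 the difference was 0.30 (SE 0.0446, adjusted p = 1.28e-06), and guide 2 lay below guide 1 by -0.37 (SE 0.045, adjusted p = 2.84e-08).

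YTHDC2 had 2709, 2608 and 1981 counts with shScramble, 1806, 1973 and 1749 with guide 2, and 2754, 2867 and 2939 with guide 1. These corresponded to 87.6, 81.9 and 86.8 CPM, to 78.3, 78.7 and 79.3 CPM, and to 96.7, 103 and 98.3 CPM. Here too the 3 groups formed separate ranges, with guide 2 lowest. The log2 fold change was -0.12 (SE 0.0475, adjusted p = 0.0344) for guide 2, 0.22 (SE 0.0466, adjusted p = 0.00016) for guide 1 and -0.34 (SE 0.0472, adjusted p = 3.33e-07) between the hairpins. The pass for guide 2 was lost with DESeq2 (adjusted p = 0.0788) and with its size factors in edgeR (0.0534). Without a low-count filter (0.184) or with a replicate term (0.0552) it was lost too. Leaving out any single shScramble or guide 2 library except shScramble replicate 2 also lost it (adjusted p = 0.0706 to 0.142). It held with library size alone (adjusted p = 3.15e-05), a minimum mean of 1 CPM (0.00334) and only the 6 libraries compared (0.0116). The ratio of YTHDC1 to YTHDC2 per kilobase, computed after their values had been seen, was 1.61 ± 0.079 with shScramble, 1.66 ± 0.0283 with guide 2 and 1.70 ± 0.0809 with guide 1, and the groups overlapped (exact permutation p between 0.3 and 0.7).

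HNRNPA2B1, proposed to read m6A in primary microRNA transcripts, was the most abundant of the 9 genes and was higher in both shMETTL3 groups. Its counts were 22934, 23015 and 17285 with shScramble, 25082, 27269 and 24103 with guide 2, and 27853, 26400 and 28251 with guide 1. In CPM these were 742, 723 and 757 with shScramble, 1087, 1087 and 1093 with guide 2, and 978, 950.3 and 945 with guide 1. The guide 2 libraries were the 3 highest and differed from one another by less than those of any other group. Guide 2 stood 1.47-fold above shScramble (1.38 to 1.57), a log2 fold change of 0.56 (SE 0.0455, adjusted p = 3.43e-11) that fell just short of a call, and guide 1 stood 1.29-fold above it (1.21 to 1.38, adjusted p = 3.88e-08). The hairpins differed by 0.19 (SE 0.0453, adjusted p = 0.000621).

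HNRNPA2B1 lies on chromosome 7 from 26189927 to 26201529 on the minus strand, and 4.88% of its exon bases are shared with CBX3 on the opposite strand, which encodes the heterochromatin protein HP1γ. CBX3 rose with guide 2 from 206 to 332 CPM (log2 fold change 0.69, SE 0.0561, adjusted p = 1.49e-10) and was at 212 CPM with guide 1 (0.04, adjusted p = 0.491). HNRNPA2B1 itself had log2 fold changes of 0.56 with guide 2 and 0.37 with guide 1. Whether reads of the shared bases were split by strand is not given in the sources used here, and the part of CBX3 reads in the HNRNPA2B1 value was not tested.

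HNRNPC, which binds uridine tracts that m6A makes accessible, was the gene called in the libraries labelled guide 1. It had 15554, 16287 and 12533 counts with shScramble, 13430, 14879 and 12997 with guide 2, and 23865, 20458 and 23529 with guide 1, that is 503, 511 and 549 CPM, then 582, 593 and 589 CPM, and 838, 736 and 787 CPM. The 3 groups did not overlap, with guide 1 highest and shScramble lowest. HNRNPC was 1.51-fold higher with guide 1 than with shScramble (1.41 to 1.62, adjusted p = 3.02e-11), a log2 fold change of 0.59 that lay so close to the limit that leaving out shScramble replicate 1 or 2 (0.57 each) or guide 1 replicate 1 (0.55) ended the call. With guide 2 the log2 fold change was 0.17 (SE 0.0505, adjusted p = 0.00403), which became 0.02 (adjusted p = 0.678) with library size alone, and guide 2 lay below guide 1 by -0.42 (SE 0.0504, adjusted p = 2.03e-08). The files also hold 13 annotated copies of HNRNPC, whose counts came to 0.561% of those of HNRNPC itself.

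The ratio of HNRNPC to HNRNPA2B1 per kilobase moved in opposite directions in the shMETTL3 groups. It was 0.726 ± 0.0244 with shScramble, 0.557 ± 0.00532 with guide 2 and 0.848 ± 0.0434 with guide 1. No groups overlapped, and the exact permutation p was 0.1 for each pair, the smallest possible.

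The HNRNPC promoter is shown as that of the gene called with guide 1, on chromosome 14 and the minus strand (RefSeq, GRCh38.p14), with the letters CCAAT on either strand, the box bound by NF-Y, in capitals.
HNRNPC promoter, chr14:21269393-21269692: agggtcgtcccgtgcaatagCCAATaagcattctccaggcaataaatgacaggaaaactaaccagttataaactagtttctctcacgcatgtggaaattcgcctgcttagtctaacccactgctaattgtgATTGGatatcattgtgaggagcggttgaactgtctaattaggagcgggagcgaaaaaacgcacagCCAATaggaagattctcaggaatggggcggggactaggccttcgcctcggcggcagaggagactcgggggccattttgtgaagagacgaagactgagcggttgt
CCAAT occurred 3 times here, against 34.614% of all promoter windows with at least 1 match and 3.258% with 3 or more. Among the motifs searched it had the most matches in this window, so these shares do not measure how unusual the window is. Windows were matched for 8 of the 9 genes. CCAAT was present in those of YTHDF1, YTHDC2 and HNRNPA2B1 and in 1 of the 2 windows of YTHDF2, each with 1 match, and absent from those of FTO, ALKBH5 and YTHDC1. TATAAA was found once, in HNRNPC, and CACGTG once, in YTHDF1, while 11.53% and 7.256% of all windows held them. GGGCGG, the GC box, was found in every window except those of FTO and HNRNPA2B1, and in 44.954% of all windows. The windows contained 15 to 50 CpG dinucleotides, with a median over all promoters of 14. These matches describe the letters of the windows and were not tested for binding.

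Among the 9 genes, 1 was called in each comparison, and most of the differences under 1.5-fold passed the test as well. Against shScramble, 7 of 9 passed an adjusted p under 0.05 with guide 2, where 61.8% of all tested genes did: 6 were higher (30.0% of all genes) and 1 was lower (31.7%). This split depended on the scaling. With library size alone, 3 were higher (FTO, ALKBH5 and HNRNPA2B1) and 3 lower (YTHDF3, YTHDC1 and YTHDC2), beside 20.1% and 42.4% of all genes, and with DESeq2's size factors in edgeR 6 were higher and 0 lower. The groups did not overlap for 8 of 9, against 66.5% of all genes. With guide 1, 1 of 9 was called, HNRNPC, against 37.7% of all tested genes called and 21.2% called higher. There, 6 of 9 passed the adjusted p alone, all higher, against 68.4% of all genes in either direction and 35.4% higher, and 6 of 9 lay above shScramble without overlap, against 36.5% of all genes and 71.0% without overlap in either direction. In the direct comparison of guide 2 with guide 1, 1 of 9 was called, FTO, against 47.3% of all genes called and 19.1% called higher with guide 2. There, 8 of 9 passed the adjusted p alone, against 74.6% of all genes. FTO, ALKBH5, YTHDF1 and HNRNPA2B1 were the 4 higher with guide 2, where 34.7% of all genes were, and YTHDF2, YTHDC1, YTHDC2 and HNRNPC were the 4 higher with guide 1, where 39.9% of all genes were. With library size alone, YTHDF1 (0.08, adjusted p = 0.151) and HNRNPA2B1 (0.05, adjusted p = 0.311) no longer passed and YTHDF3 did (-0.11, adjusted p = 0.0484), which left 2 higher and 5 lower with guide 2, beside 28.4% and 46.3% of all genes. Both comparisons with shScramble share the same control libraries.

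The median of the absolute log2 fold changes was 0.17 over the 9 genes and 0.39 over all tested genes for guide 2, 0.22 and 0.47 for guide 1, and 0.34 and 0.59 between the hairpins. The signed medians were 0.17, 0.22 and 0.03 over the 9 genes and -0.04, -0.02 and -0.06 over all genes. The 9 genes are well expressed, and among the 4193 tested genes at or above the lowest of their mean levels (61.9 CPM), a cut chosen after the values were seen, 13.8%, 20.3% and 32.0% were called in the 3 comparisons. With 9 genes, a count of 1 called gene in each comparison is no result about the members.

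**Figure D3:**
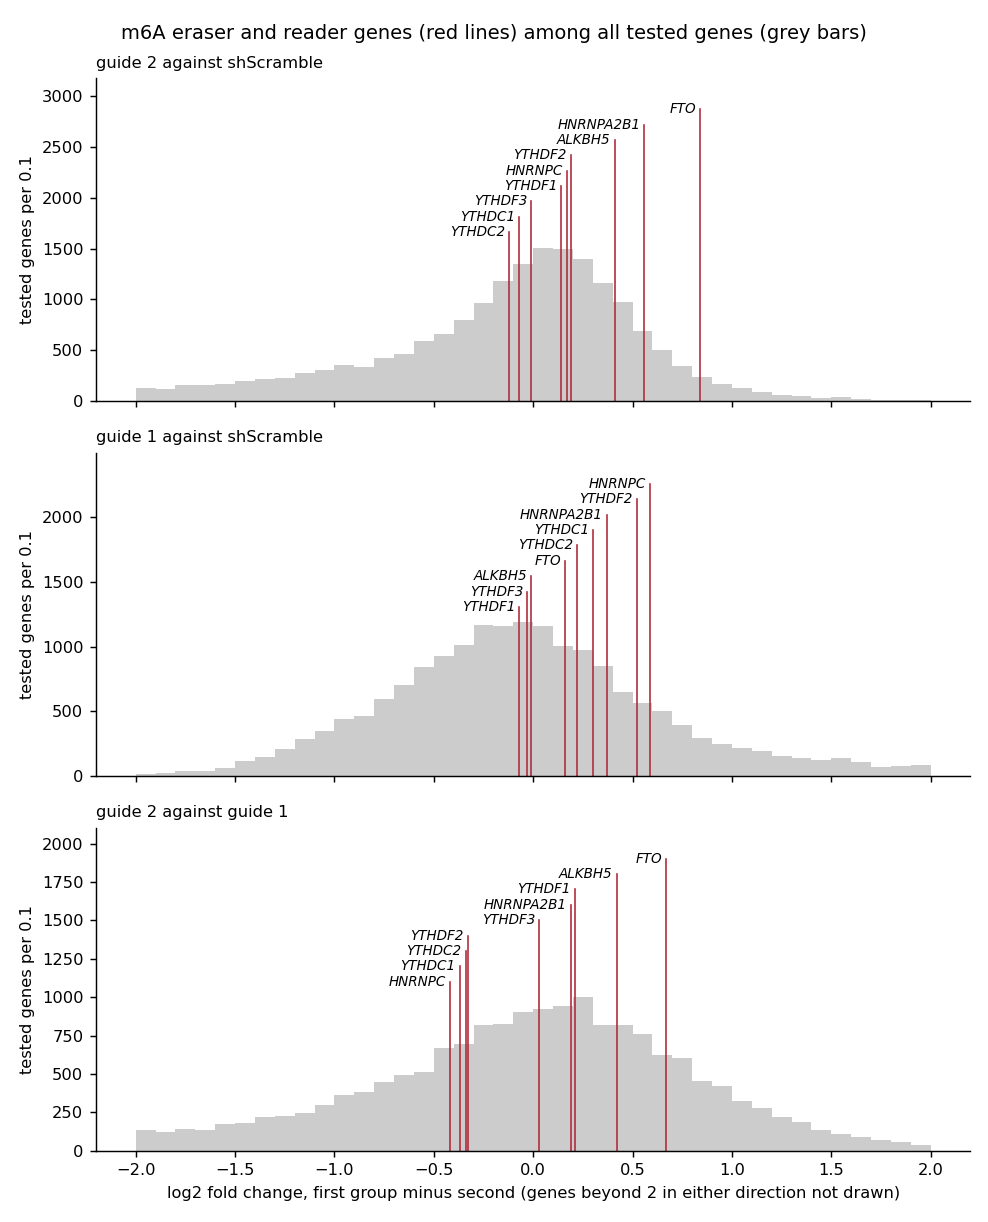
Number of tested genes per 0.1 of log2 fold change (grey bars; genes beyond 2 in either direction are not drawn) for the 3 comparisons, with the 9 eraser and reader genes as red lines. FTO at 0.84 lies in the upper flank for guide 2, whereas most of the 9 genes lie in the centre of each distribution, between -0.12 and 0.59 in all other cases against shScramble.

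**Figure D4:**
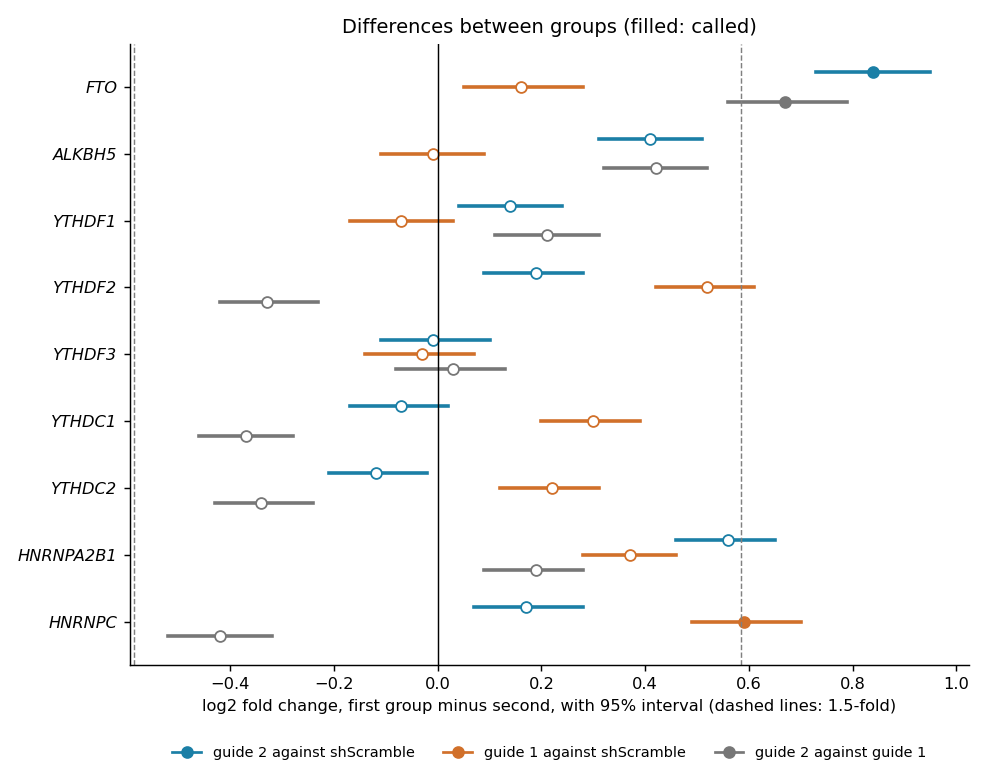
Log2 fold change with its 95% interval from edgeR for each gene in the 3 comparisons (colours); filled points were called, dashed lines mark 1.5-fold and the solid line marks 0. Only FTO with guide 2 (0.84), FTO between the hairpins (0.67) and HNRNPC with guide 1 (0.59) are filled, and the grey points of YTHDF2, YTHDC1, YTHDC2 and HNRNPC lie left of 0.

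Divided by exon length, the order of the levels with shScramble was HNRNPA2B1 (98.2 CPM per kilobase), HNRNPC (71.3), ALKBH5 (66.5), YTHDF2 (34.1), YTHDF1 (33.2), YTHDF3 (13.5), YTHDC1 (12.7), YTHDC2 (7.90) and FTO (3.73). HNRNPC and ALKBH5, YTHDF2 and YTHDF1, and YTHDF3 and YTHDC1 were neighbours in this order whose libraries overlapped. With guide 2, ALKBH5 (88.4) stood above HNRNPC (80.5) without overlap, and FTO, though 1.79-fold higher, remained the lowest gene at 6.68 against 7.28 for YTHDC2. With guide 1, HNRNPC (108) stood above ALKBH5 (66.2), YTHDF2 (48.7) above YTHDF1 (31.6) and YTHDC1 (15.6) above YTHDF3 (13.2), each without overlap. The exon length is that of all annotated exons of a gene merged, 12723 bases for FTO and 3190 for ALKBH5, so that a gene with long, rarely used exons receives a low value.

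Across the 9 libraries, the log2 CPM of several of these genes moved together, as a description over libraries that fall into 3 groups. The highest Pearson correlations were 0.95 between FTO and ALKBH5, 0.94 between YTHDF2 and HNRNPC and 0.94 between YTHDC1 and YTHDC2, and the lowest were -0.80 between YTHDF1 and both YTHDC genes. The genes most like each of them over the 9 libraries were SELENOI, VASH2 and ZNF107 for FTO (r = 0.992 to 0.995), RAB3A and GTF2I for ALKBH5 (0.991 and 0.989), PTBP1, FXYD5 and KIF2A for YTHDF2 (0.993 each) and ZNF341, ADCK2 and ALB for YTHDF1 (0.972 to 0.979). For YTHDC1 they were FGFR1OP2, PRPF38B and UPF3B (0.996 to 0.997), for YTHDC2 NEXMIF, R3HCC1L and GGA2 (0.994 each), for HNRNPA2B1 PDSS1, RFX5 and HACD3 (0.994 to 0.996) and for HNRNPC DDX18, AASDHPPT and RPF2 (0.994 to 0.995). YTHDF3 had no gene above 0.861 (MANBAL). VASH2, which encodes a tubulin carboxypeptidase, followed FTO in size as well, with log2 fold changes of 0.90 for guide 2 and 0.17 for guide 1, and DDX18, a nucleolar helicase, followed HNRNPC with 0.17 and 0.61.

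The nearest tested neighbours of the other genes followed several patterns. LINC00641, a non-coding gene 2236 bases from HNRNPC on the same strand, fell with guide 2 from 17.8 to 7.33 CPM (log2 fold change -1.28, SE 0.0891, adjusted p = 1.33e-12) and had a log2 fold change of 0.36 with guide 1. YTHDF3-DT, transcribed away from YTHDF3 from a start 111 bases off, fell with guide 1 (-1.18, SE 0.188, adjusted p = 7.78e-06), where YTHDF3 was at -0.03. MCC, a neighbour of YTHDC2 on the opposite strand, rose with guide 1 (1.60, adjusted p = 2.63e-15). LLGL1, next to ALKBH5, was at 0.38 with guide 2 (adjusted p = 2.16e-07) beside 0.41 for ALKBH5. With guide 1 LLGL1 was at 0.22 (adjusted p = 0.000367) beside -0.01 for ALKBH5. MYO15A, the closer neighbour on the other side of ALKBH5, fell with guide 2 at low level, from 0.607 to 0.152 CPM (-1.91, adjusted p = 0.00356). GMEB1, next to YTHDF2, was at -0.27 with guide 1 (adjusted p = 0.00142) beside 0.52 for YTHDF2, and at 0.31 with guide 2 (adjusted p = 0.000304) beside 0.19.

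Other genes of the m6A pathway were placed beside the erasers and YTH or hnRNP readers in 5 lists with 59 genes, all of them tested. With guide 2, 2 of the 59 were called higher and 4 lower, and with guide 1, 11 were called higher and 1 lower, in all 10.2% and 20.3% of the 59, beside 29.3% and 37.7% of all tested genes. The median log2 fold changes of the 5 lists lay between -0.03 and 0.18 with guide 2 and between 0.11 and 0.29 with guide 1, against -0.04 and -0.02 over all tested genes. Of 13 writer genes, only METTL3 was called with guide 2, and RBM15, which guides the writer complex to its sites, rose with guide 1 (0.70, SE 0.0701, adjusted p = 9.77e-10).

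The largest changes in the pathway were in 2 readers outside the YTH and hnRNP families. IGF2BP1, which stabilises bound mRNA, was at 14.5 ± 1.66 CPM with shScramble, 2.81 ± 0.760 with guide 2 and 134 ± 6.16 with guide 1, with log2 fold changes of -2.36 (adjusted p = 1.33e-12) and 3.22 (adjusted p = 5.92e-19). IGF2BP2, of the same family, was at 5.14 ± 0.625, 0.978 ± 0.433 and 43.8 ± 0.483 CPM (-2.35, adjusted p = 1.47e-11, and 3.10, adjusted p = 1.83e-20). Both fell with guide 2 and rose with guide 1. The translation factor gene EIF3B rose with guide 2 (0.61), and FMR1 (0.88) and RBMX (0.84), which encodes an RNA-binding protein of the hnRNP G type, rose with guide 1. In all, 3 of 14 other readers were called with guide 2 and 4 with guide 1, beside 29.3% and 37.7% of all tested genes.

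Of the effectors through which YTHDF proteins act on mRNA, 0 of 12 CCR4-NOT genes were called with guide 2 by edgeR or by DESeq2. By edgeR, 29.3% of all tested genes were called there. At an unadjusted p under 0.05, 8 of the 12 were higher and 2 lower. For all tested genes only the shares at an adjusted p under 0.05 are given, 30.0% higher and 31.7% lower. With guide 1, 4 of the 12 rose, led by CNOT10 (0.96), the scaffold CNOT1 (0.78) and the nuclease CNOT6L (0.78), and TNKS1BP1 fell by 0.69 on the log2 scale. By the same rule, 21.2% of all tested genes were called higher with guide 1 and 37.7% in either direction. Of 12 genes of RNase P/MRP and its adaptor, POP1 rose with guide 2 (0.59, adjusted p = 1.46e-07), close to the 1.5-fold limit. RPP21 fell with guide 2 at low level, with 0.666 ± 0.0802 against 1.63 ± 0.419 CPM (-1.25, adjusted p = 0.000428). With guide 1, RPP25 rose (0.71, adjusted p = 6.96e-09). Among 8 partners of YTHDC1 and YTHDC2, 0 were called with guide 2 by edgeR or DESeq2 (3 higher and 1 lower at an unadjusted p under 0.05), and MEIOC, the meiotic partner of YTHDC2, was called with guide 1 at low level, with 2.61 ± 0.338 against 1.02 ± 0.288 CPM (1.37, adjusted p = 2.05e-05). The shares of all tested genes called, as given for the CCR4-NOT genes, hold for the called genes here too. For the counts at an unadjusted p no share of all tested genes is given.

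The relatives of the erasers and of the hnRNP readers were described in the same way. Of 7 other AlkB homologues, ALKBH2, a DNA repair enzyme, rose with guide 2 from 30.5 ± 0.316 to 59.5 ± 1.62 CPM (0.97, SE 0.0564, adjusted p = 3.85e-14), close in size to FTO, and ALKBH6 fell (-0.78, adjusted p = 0.000708). With guide 1, ALKBH8, a tRNA methyltransferase, rose (0.91), and ALKBH7 (-0.73) and ALKBH6 (-0.67) fell. Of 23 other hnRNP genes, HNRNPD (0.65) and HNRNPA1 (0.59), whose product acts in splicing beside HNRNPA2B1, rose with guide 2, and 6 rose with guide 1, led by HNRNPDL (1.05), HNRNPAB (1.00), HNRNPH3 (0.87) and HNRNPD (0.84). Of all tested genes, 8.85% were called higher with guide 2 and 21.2% with guide 1. By edgeR and by DESeq2, 0 of the 23 were called lower against shScramble, with 3 lower at an unadjusted p under 0.05 for each hairpin. By edgeR, 29.3% of all tested genes were called in either direction with guide 2 and 8.85% were called higher, the rest of the 29.3% being called lower. With guide 1 these shares were 37.7% and 21.2%. No share of all genes is given at an unadjusted p. At an adjusted p under 0.05 alone, a looser rule than that for a call, 31.7% of all tested genes were lower with guide 2 and 33.0% with guide 1. The median log2 fold change of the 23 was 0.22 with guide 2 and 0.36 with guide 1, against -0.04 and -0.02 over all tested genes.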

How the data were processed

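RNA-seq of 9 libraries was used. Per the study's methods, the authors used Trim Galore to trim reads, STAR to align them to GRCh38 (Ensembl) and featureCounts to count them per gene. The deposited values are raw counts per gene and library, not normalized or pooled. Tool versions and the strand setting are not given in the sources used here, so reads of overlapping genes and near-identical copies could fall on either. Of 60675 genes, 56558 (93.2%) received a symbol, and 0 rows lacked a gene.

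From these counts, edgeR 4.0.16 (R 4.3.3) computed TMM factors, a filter (filterByExpr, minimum count 10, minimum total 15; 19278 genes left) and a robust quasi-likelihood fit over all 9 libraries with 1 coefficient per group. Intervals are at 95%. Groups came from the sample labels. CPM per kilobase used merged exon length. Alternatives included DESeq2 1.42.0, other scalings and filters, and each library left out. The fit was tested on simulated data.

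The members and gene lists were chosen with earlier results of these data known. Named besides the members are METTL3, at most the 4 called genes of largest change per list and comparison with shScramble, the nearest tested and exon-sharing genes, and the 3 genes of highest correlation with each member, of which 1 is not reported here. Marker genes named with the depth were chosen after their values were seen.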

Additional observations from a re-analysis of the deposited data

Results flagged for a closer look

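The effect of guide 2 and that of guide 1 against the same shScramble libraries differed for 8 of the 9 genes, by the direct comparison of guide 2 with guide 1 in edgeR (adjusted p under 0.05). The difference, guide 2 minus guide 1 on the log2 scale, was 0.67 for FTO, 0.42 for ALKBH5, 0.21 for YTHDF1 and 0.19 for HNRNPA2B1. It was -0.33 for YTHDF2, -0.37 for YTHDC1, -0.34 for YTHDC2 and -0.42 for HNRNPC. YTHDF3 had 0.03 (adjusted p = 0.648). The same comparison passed for 74.6% of all tested genes, and METTL3 differed in it by -0.86.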

How the results depend on the processing

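In the alternatives, 351 fold changes of the 9 genes were recomputed, of which 333 kept their direction and their side of the call. With library size alone as the scale, the median of all tested genes moved by -0.15 for guide 2 against shScramble and by -0.14 for guide 2 against guide 1, YTHDF1, YTHDF2 and HNRNPC with guide 2 became -0.01, 0.04 and 0.02 and no longer passed the adjusted p, YTHDF3 between the hairpins became -0.11, HNRNPC with guide 1 (0.58) and FTO between the hairpins (0.54) lost the call, and 0 of 9 genes were called in these last 2 comparisons. Relative to the median of all tested genes under the same scale, YTHDF1 with guide 2 was at 0.18 under both scalings. YTHDF3 with guide 2 was at 0.0 with DESeq2 and with its size factors in edgeR, at 0.01 without a filter, and at 0.02, 0.02 and 0.01 without shScramble replicate 1, shScramble replicate 2 and guide 2 replicate 1 (-0.06 to 0.02 over all libraries left out). YTHDF3 between the hairpins was at -0.02 with a minimum mean of 1 CPM. ALKBH5 with guide 1 was at 0.0 with DESeq2 and with its size factors, and at 0.02 and 0.06 without shScramble replicate 1 and guide 1 replicate 1 (-0.05 to 0.06 over all libraries left out). None of these sign changes was near a call, and the cause was not tested. HNRNPC with guide 1 was at 0.57, 0.57 and 0.55 without shScramble replicate 1, shScramble replicate 2 and guide 1 replicate 1, so 0 to 1 members were called there over the libraries left out, and 0 with glmTreat against 1.5-fold. The other 2 comparisons kept 1 called member whichever library was left out. With the adjusted p alone, 7, 6 and 8 members and 37, 48 and 46 of the 59 other pathway genes passed with guide 2, with guide 1 and between the hairpins, by the looser rule itself. Of all tested genes, 61.8%, 68.4% and 74.6% passed by that rule. With glmTreat, 10 pathway genes were called between the hairpins. Over the libraries left out, called pathway genes numbered 4 to 8, 11 to 12 and 16 to 18, and without guide 2 replicate 1 they were 4 with guide 2, against 6 in all libraries.

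Replicate numbers are shared between groups. The deviations of same-numbered libraries from their group means correlated at -0.098 to 0.053, and those of differently numbered libraries at -0.053 to 0.107. No pairing by number was seen, but with 3 libraries a group this check cannot exclude one. With the replicate block, 1 member was called in each comparison, and 6, 12 and 16 other pathway genes.

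Limits remain. There are 3 libraries a group, and the labels do not say what a replicate is. Without division by exon length the shares and ratios take other values, such as 33.8% for YTHDF1 with shScramble, 34.2% with guide 2 and 27.9% with guide 1. Counts of 1043 to 28251 per library leave little counting error for the 9 genes. RNA levels say nothing of protein or of m6A itself.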
